A study of Mus musculus with 8 samples.

Results

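The BCL2 family genes described here are 10 genes that set whether a T cell lives or dies through its mitochondria. They were chosen by name, for their roles: the survival genes Bcl2, Bcl2l1 and Mcl1, the death-promoting genes Bcl2l11, Bbc3, Pmaip1, Bid and Bad, and the pore-forming genes Bax and Bak1. All 10 were among the 46625 gene names of the count table, and all 10 passed the filter on low counts, which kept 14607 genes. The cells came from 8F10 mice, whose CD4 T cells carry a receptor for an insulin peptide, and had grown from bone marrow of CD45.2 donors that lack the endogenous TCR alpha chain. The marrow was depleted of T and B cells before it was placed in CD45.1 hosts irradiated below a lethal dose, so host cells remained in these animals. NOD hosts make native insulin. B16A hosts are NOD mice in which insulin carries a changed residue of the B chain, and the strain label is NOD/ShiLtJ for both. After 6 weeks the 8F10 cells were sorted from inguinal lymph nodes, with 4 libraries per host and 1 of each host in each of batches 1 to 4. Information on host age, sex and pooling of animals is not given in the sources used here. Because separate animals are not stated for each library, p-values measure the spread between these libraries, which may be technical.

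The family acts at the outer mitochondrial membrane. BCL2, BCL-XL (from Bcl2l1) and MCL1 hold the pore-formers BAX and BAK in check. The BH3-only proteins BIM (from Bcl2l11), PUMA (Bbc3), NOXA (Pmaip1), BID and BAD bind the survival proteins through a short helix, the BH3 domain, and some of them also switch on BAX and BAK directly. Once BAX or BAK open the membrane, cytochrome c leaves the mitochondrion and caspases are activated. In naive T cells, IL-7 signals through Il7r and maintains Bcl2 and Mcl1, while Bcl2l11 is known for the removal of self-reactive T cells and of T cells deprived of cytokine.

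The BH3 helix is what binds these proteins to each other, and its coding bases are shown for 5 members to place the sequence that the family shares beside the levels that follow. In the annotated coding sequences, the pattern of a leucine, 3 free residues, a small residue (glycine, alanine or serine) and an aspartate occurred 1 time in 9 of the members and 2 times in Pmaip1. The pattern is short: 18.7% of the 7787 annotated proteins of 100 to 350 residues held it, so a match is a description of these letters only. The 18 core bases are in capitals with 9 coding bases on each side, read 5′ to 3′ on the coding strand from GENCODE vM21 transcripts (GRCm38, the assembly that mm10 denotes).
Bcl2l11, exon 3, chr2:128147141-128147176, plus strand: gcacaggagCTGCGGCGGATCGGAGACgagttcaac
Bbc3, exon 3, chr7:16313764-16313799, plus strand: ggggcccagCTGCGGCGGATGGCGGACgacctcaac
Mcl1, exon 1, chr3:95659427-95659462, plus strand: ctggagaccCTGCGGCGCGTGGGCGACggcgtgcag
Bax, exon 3, chr7:45465997-45466032, minus strand: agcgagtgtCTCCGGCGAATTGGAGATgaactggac
Bcl2, exon 1, chr1:106712575-106712610, minus strand: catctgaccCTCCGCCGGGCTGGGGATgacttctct
Each stretch lies in coding sequence within 1 exon. Of the 18 core bases of Bcl2l11, Bbc3 shared 15, Mcl1 14, Bax 14 and Bcl2 11, and the lowest number among the members was 9, in Bcl2l1 and Bid. The stretches were picked by the residue pattern, so part of each match was fixed in advance. These 50-base single reads were counted per gene, so the counts do not separate splice forms of Bcl2l11, Bcl2l1 or Mcl1.

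Total counts were 4896593 to 6137666 in the libraries of batches 1 to 3 and 28094237 and 28301805 in batch 4. The members had 2659 to 4820 counts together per library in batches 1 to 3 and 16910 and 21278 in batch 4. All 10 T cell markers were detected in every library, Cd3e at 1078 to 4203 CPM and Cd4 at 699 to 1204 CPM. CPM is a count scaled to library size after TMM normalization, which corrects for differences in composition between libraries. The summed level of 7 B cell markers was 37.7 to 151 CPM in NOD and 31.4 to 98.0 CPM in B16A hosts, with Cd74 the highest, and 2 of the 7 were at 0 in some library. The 10 myeloid and dendritic cell markers summed to 4.84 to 61.0 and 5.95 to 41.0 CPM, with 6 at 0 in some library, and of the 2 CD8 genes Cd8a stood at 0 to 3.56 CPM. The other, Cd8b1, ran from 62.6 to 120.2 CPM across batches 1 to 3, and the batch 4 libraries held 122 and 186 CPM. Batch 4 stood apart: Cd69, an early activation marker, was at 3734 and 4781 CPM there and at 88.2 to 357 CPM elsewhere. Despite its higher total counts, batch 4 had fewer genes detected, 19751 in the NOD library and 20723 in the B16A library. Libraries of batches 1 to 3 each had between 29729 and 33175. The TMM factors of batch 4 were also lower, 0.79 for NOD and 0.85 for B16A, against a range of 1.01 to 1.12 for batches 1 to 3. The cause of these differences of batch 4 was not tested. The batch label cannot be told apart from whatever else set those libraries apart, so results are given with batch 4 and, where it changes them, without it.

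Mcl1 was the most abundant family transcript in all 8 libraries, and Bcl2, Bcl2l11 and Mcl1 together took 73.0% to 88.9% of the members' counts. To compare genes, CPM was divided by the summed exon length of each gene in kilobases. Per kilobase, Mcl1 stood at 103 ± 27.5 CPM (SD, n = 8 libraries), above Bax at 15.0 ± 14.0, Bcl2l11 at 13.1 ± 2.00, Bcl2 at 10.9 ± 4.15 and Bak1 at 8.66 ± 2.46. Below these came Bbc3 at 4.85 ± 2.91, Bad at 4.26 ± 3.32, Bcl2l1 at 3.86 ± 1.88, Pmaip1 at 3.45 ± 5.12 and Bid at 2.40 ± 1.62 CPM per kilobase. Mcl1 exceeded Bax in 8 of 8 libraries. No other pair of neighbours in this order was ranked the same way in all 8: Bax exceeded Bcl2l11 in 2 libraries, the batch 4 pair, and Bcl2l11 exceeded Bcl2 in 6. By the same scale the 3 survival genes made up 70.0% ± 9.48 of the members' transcripts in NOD and 69.8% ± 3.73 in B16A hosts (SD, n = 4 each). The lowest shares were the batch 4 libraries, at 56.8% and 64.4%, and the other 6 libraries ran from 69.6% to 78.3%.

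**Figure D1:**
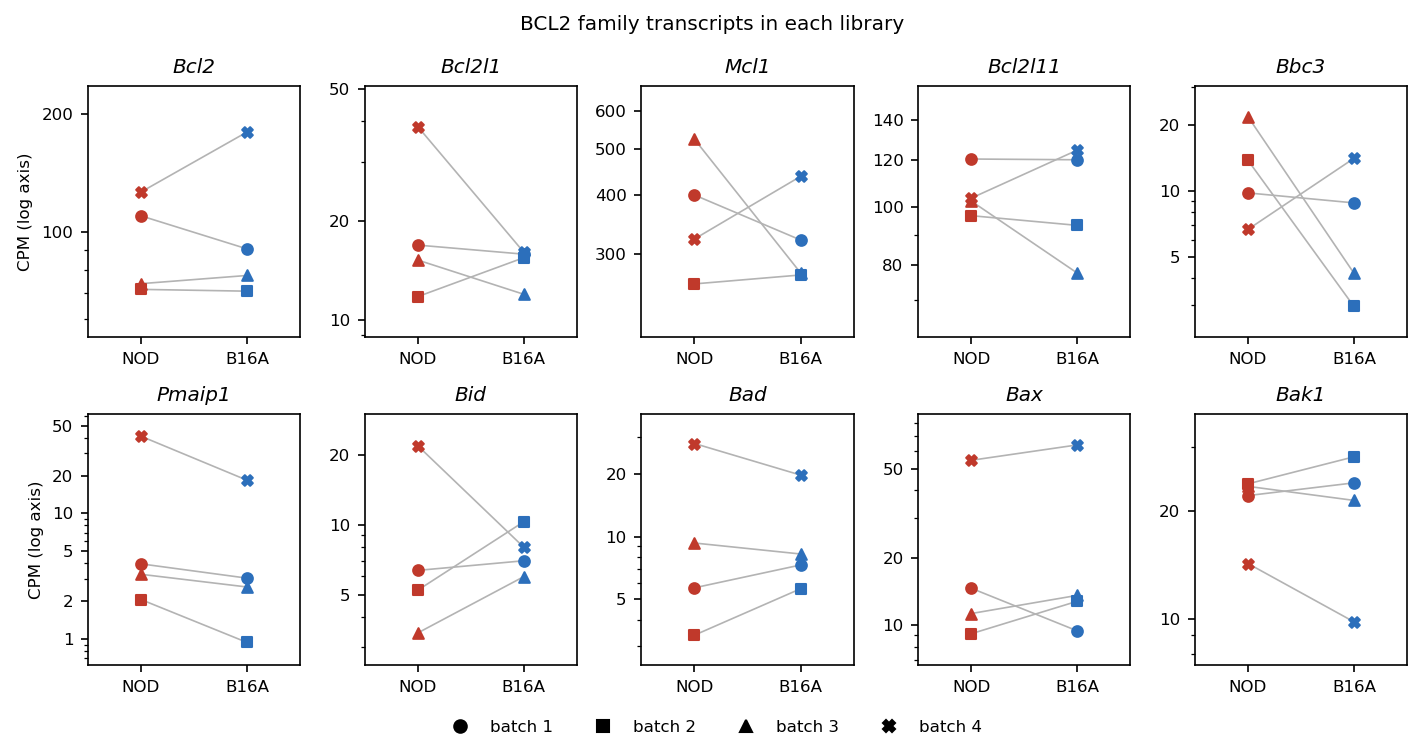
CPM of the 10 BCL2 family genes in each library (log axes, a separate range per gene). Red markers are NOD and blue markers B16A hosts, the marker shape gives the batch, and grey lines join the libraries of a batch. Pmaip1, at 18.4 and 41.1 CPM, and Bax, at 54.4 and 63.8 CPM, sit far above the other batches in batch 4, and the lines of Bbc3 slope down from NOD in batches 1 to 3 and up in batch 4.

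None of the members passed the adjusted threshold between the 2 hosts. In the comparison of 4 with 4 libraries, edgeR's quasi-likelihood test called 0 of 10 members and 0 of 14607 genes (0.0% called), and every member had an adjusted p of 0.9999. At an unadjusted p under 0.05 it found 0 members, against 34 genes in all (0.233%). With the batch as a term the same test again called 0 of 10 members and 0.0% of genes. Then 1 member, Pmaip1, had an unadjusted p under 0.05, against 5.87% of genes, 3.55% of genes being higher in NOD. DESeq2 without the batch term gave a p to 13524 genes and to 8 members, all but Pmaip1 and Bax. It called 0 of these genes (0.0%), with 0 of the 8 members and 0.776% of genes at an unadjusted p under 0.05. With the batch term DESeq2 gave an adjusted p to only 3563 genes, and to 3 members, Bcl2, Mcl1 and Bcl2l11, so the other 7 could not be called. It called 27 genes (0.758%) and none of those 3 members, with 0 of 10 members against 5.85% of genes (3.7% higher in NOD) at an unadjusted p under 0.05. Limma voom with the batch term called 9 genes (0.0616%) and no member. At an unadjusted p under 0.05 it found 2 members, Mcl1 and Pmaip1, both higher in NOD, against 8.03% of genes (4.5% higher in NOD). Without the batch term limma voom called 0 of 14607 genes. At an unadjusted p under 0.05 that fit found 2 members, Mcl1 and Bbc3, both higher in NOD, against 6.98% of genes. In edgeR the median log2 fold change over the members was 0.20 without and 0.06 with the batch term, beside 0.03 and 0.01 over all tested genes.

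The survival gene Bcl2, the founding member of the family, lies on chromosome 1 (106538178 to 106714274, minus strand). It stood at 110.0, 71.4, 73.9 and 126 CPM in the NOD libraries of batches 1 to 4 and at 90.6, 70.7, 77.5 and 180 CPM in the B16A libraries. The hosts overlapped, and the highest library of each host was batch 4. The log2 fold change, NOD over B16A, was -0.13 (standard error 0.37, 95% interval -0.99 to 0.72). With the batch term the interval narrowed to -0.41 to 0.26 around -0.08 (edgeR, adjusted p = 0.9914), so this fit left room for a Bcl2 level lower in NOD by 0.41 or higher by 0.26 on the log2 scale.

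Mcl1, a survival protein with a short half-life that T cells need throughout life, lies on chromosome 3 (95658788 to 95663176, plus strand). Its level was 400, 260, 524 and 323 CPM in NOD hosts and 321, 271, 274 and 437 CPM in B16A hosts. Batch 3 of NOD hosts was the highest library and batch 2 of NOD hosts the lowest, so the B16A libraries fell within the range of the NOD libraries. The log2 fold change was 0.21 (standard error 0.31, 95% interval -0.49 to 0.90), and 0.18 with the batch term (-0.21 to 0.58). Within batches the log2 ratio was 0.31, -0.06, 0.93 and -0.44. In batches 1 to 3 alone, with the batch term, it was 0.40 (0.06 to 0.73, edgeR, unadjusted p = 0.0220, adjusted p = 0.4674), a fit in which 8.37% of all genes had an unadjusted p under 0.05, 4.5% being higher in NOD. With batch 3 left out in place of batch 4 it was -0.06.

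Bcl2l1 encodes BCL-XL, which is low in resting T cells and induced on activation. It stood at 16.9, 11.8, 15.2 and 38.5 CPM in NOD hosts and at 15.8, 15.4, 12.0 and 16.05 CPM in B16A hosts. The NOD library of batch 4 was above all others, and its B16A partner stood level with the other B16A libraries. Cd69 was high in both libraries of batch 4. The part of activation in the Bcl2l1 levels was not tested. The log2 fold change was 0.48 (standard error 0.40, 95% interval -0.44 to 1.40) and fell to 0.02 (-0.49 to 0.53) in batches 1 to 3 with the batch term (edgeR, adjusted p = 0.9918).

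Bcl2l11, which encodes BIM, was the steadiest member for its level over all 8 libraries with TMM scaling (chromosome 2, 128126038 to 128162547, plus strand). The NOD libraries held 120.5, 96.9, 102 and 104 CPM and the B16A libraries 120.1, 93.3, 77.7 and 125 CPM. In batches 1 and 2 the 2 hosts differed by log2 ratios of 0.00 and 0.05, and in batches 3 and 4 by 0.40 and -0.27. The log2 fold change was 0.03 (standard error 0.24, 95% interval -0.53 to 0.58) and 0.04 with the batch term (-0.27 to 0.36, edgeR, adjusted p = 0.998). In batches 1 to 3 alone Bak1 was steadier for its level, at 21.4 to 28.2 CPM against 77.7 to 120.5 CPM for Bcl2l11.

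Bbc3, which encodes PUMA, a BH3-only protein induced by p53 and by cytokine loss, had the largest host difference within batches (chromosome 7, 16308393 to 16318205, plus strand). NOD libraries held 9.81, 13.8, 21.9 and 6.68 CPM, and B16A libraries held 8.83, 2.96, 4.21 and 14.1 CPM. In batches 1 to 3 the NOD libraries lay above all 3 B16A libraries, while in batch 4 the order was the reverse. It was the only member whose hosts did not overlap in batches 1 to 3, a pattern of 10.2% of tested genes, and of 4.75% in this direction. Behind these levels were 57 against 58 counts in batch 1, 74 against 19 in batch 2, 134 against 26 in batch 3 and 149 against 337 in batch 4, NOD first. The ratio was 1.11-fold in batch 1, 4.67-fold in batch 2, 5.21-fold in batch 3 and 0.473-fold in batch 4. Exact 95% intervals for counting error, on the log2 scale, were -0.40 to 0.70, 1.48 to 3.03, 1.77 to 3.05 and -1.37 to -0.80 in that order. These intervals cover counting error only, because reads amplified without molecular identifiers are not independent molecules. Batches 2 and 3 thus carried the higher level in NOD hosts, batch 1 showed no difference beyond counting error, and batch 4 went the other way.

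Over all 8 libraries the Bbc3 log2 fold change was 0.78 (standard error 0.58, 95% interval -0.55 to 2.11, edgeR, unadjusted p = 0.216, adjusted p = 0.9999). With the batch term it was 0.84 (-0.31 to 1.98, edgeR, adjusted p = 0.9167). Limma voom gave 1.33 without the batch term (0.42 to 2.24, unadjusted p = 0.0081, adjusted p = 0.6507) and 0.82 with it. In batches 1 to 3 with the batch term it was 1.54 (standard error 0.38, 0.76 to 2.32, edgeR, unadjusted p = 0.000441, adjusted p = 0.0979), short of the 0.05 threshold that 0.204% of genes passed in that fit. This was the lowest adjusted p of any member under any setting that gave one. The same 6 libraries without the batch term gave 1.505 (edgeR, unadjusted p = 0.00398, adjusted p = 0.975), where 0.0% of genes were called and 4.48% had an unadjusted p under 0.05. Leaving out batch 2 or batch 3 in place of batch 4 gave 0.37 and 0.32. Il7r, whose signal opposes cytokine-loss death, was, like Bbc3, higher in NOD in batches 1 to 3 and lower in batch 4. Its NOD and B16A levels were 415 and 288 CPM in batch 1, 351 and 189 in batch 2, 509 and 227 in batch 3, and 1069 and 1586 in batch 4. The part of Il7r in the Bbc3 levels was not tested. Higher in NOD in batches 1 to 3 and lower in batch 4 was a pattern of 7.3% of tested genes and of 2 members, Bbc3 and Bcl2l11.

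Pmaip1, which encodes NOXA, the BH3-only partner of MCL1, was the only member higher in the NOD library in all 4 batches, as were 7.43% of tested genes. NOD libraries held 3.96, 2.06, 3.27 and 41.1 CPM and B16A libraries 3.04, 0.936, 2.59 and 18.4 CPM. The counts were low outside batch 4, at 6 to 23 per library, and the log2 ratios of 0.38, 1.14 and 0.34 in batches 1 to 3 were each within counting error. In batch 4, on 918 and 438 counts, the ratio was 1.16 (counting interval 1.00 to 1.33). The log2 fold change was 1.01 (standard error 1.20, 95% interval -1.73 to 3.75), and the batch term narrowed it to 0.77 (standard error 0.33, 0.06 to 1.48, edgeR, unadjusted p = 0.0358, adjusted p = 0.8419). In batches 1 to 3 with the batch term it was 0.57 (-0.64 to 1.78).

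Bid and Bad link death receptors and growth factor signals to the mitochondrion. Bid, cut by caspase 8 into its active form, stood at 6.37, 5.24, 3.43 and 21.8 CPM in NOD and 7.003, 10.3, 5.99 and 8.00 CPM in B16A hosts. NOD was the lower host in batches 1 to 3, with log2 ratios of -0.14, -0.98 and -0.80, and the higher host in batch 4, at 1.45. Its log2 fold change was 0.25 with a standard error of 0.60 over 8 libraries and -0.63 with a standard error of 0.39 in batches 1 to 3 with the batch term (edgeR, adjusted p = 0.746). Bid overlaps Bcl2l13 on the opposite strand, and without a stated strand setting reads from the shared part cannot be assigned to either. Bad, which AKT phosphorylation keeps inactive, stood at 5.68, 3.37, 9.32 and 28.0 CPM in NOD and 7.31, 5.62, 8.25 and 19.7 CPM in B16A hosts. Its hosts overlapped in batches 1 to 3, and its log2 fold change was 0.18 (standard error 0.70, edgeR, adjusted p = 0.9999). Bad overlaps Gpr137 on the opposite strand, with the same limit.

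The pore-formers Bax and Bak1 differed in opposite directions between batch 4 and the rest, and neither passed the test between hosts. Bax stood at 14.6, 9.16, 11.3 and 54.4 CPM in NOD and 9.44, 12.8, 13.6 and 63.8 CPM in B16A hosts. Bak1 stood at 22.03, 23.7, 23.4 and 14.3 CPM in NOD and 23.9, 28.2, 21.4 and 9.81 CPM in B16A hosts. Per kilobase, Bak1 was above Bax in 5 of the 6 libraries of batches 1 to 3. The exception was NOD batch 1, at 9.28 for Bax and 9.15 for Bak1. In batch 4 Bax was the higher, at 34.5 against 5.92 CPM per kilobase in NOD and 40.5 against 4.07 in B16A hosts. The log2 fold changes between hosts were -0.15 for Bax (standard error 0.80, 95% interval -1.99 to 1.68) and 0.00 for Bak1 (standard error 0.37, -0.84 to 0.84). The batch term narrowed these intervals to -0.57 to 0.38 and -0.38 to 0.54 (edgeR, adjusted p = 0.9956 and 0.9959). Bak1 overlaps the Ggnbp1 gene on the opposite strand.

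**Figure D2:**
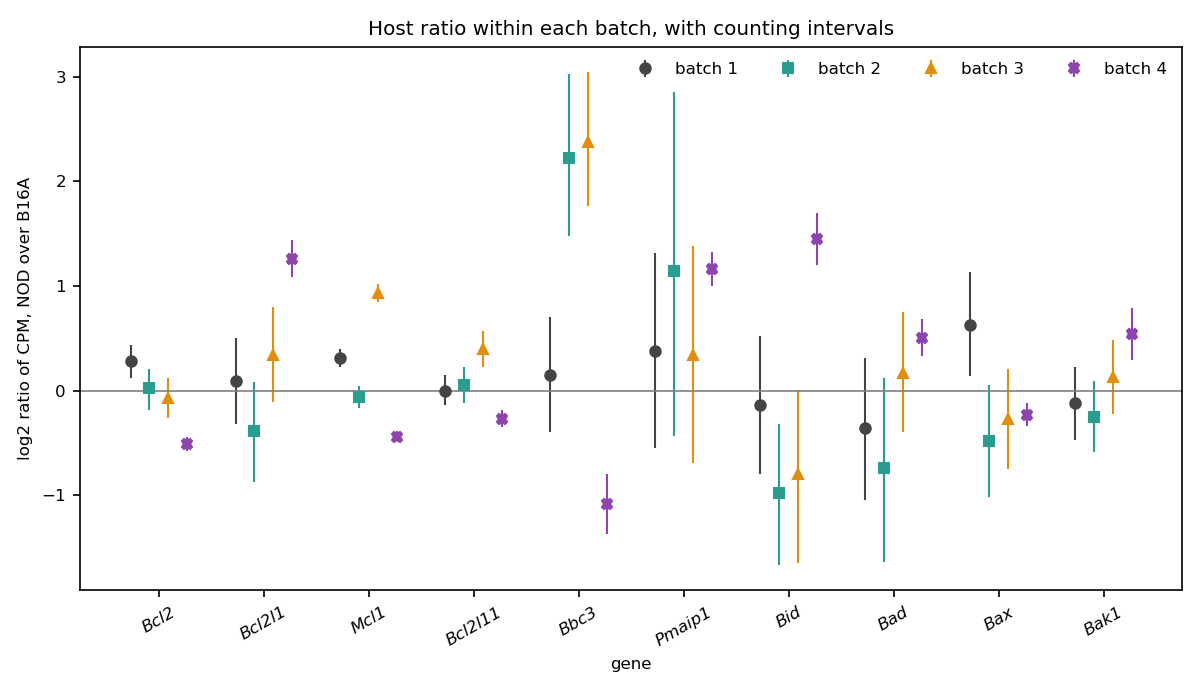
Within-batch log2 ratio of CPM for each member, with the NOD library divided by its B16A partner. Each marker is 1 pair of libraries, and its bar is the exact 95% interval for counting error only. Bbc3 stands at 2.22 and 2.38 in batches 2 and 3 and at -1.08 in batch 4, and Pmaip1 is above 0 in all 4 batches.

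Outside batch 4, most within-batch differences of the members lay within counting error. In batches 1, 2 and 3 the interval excluded 0 for 3, 2 and 3 of the 10 members, and in batch 4, with its deeper libraries, for all 10. The shares of all tested genes were 25.9%, 48.9%, 33.7% and 65.1% in batches 1 to 4. Those of batch 1 were Bcl2, Mcl1 and Bax, those of batch 2 Bbc3 and Bid, and those of batch 3 Mcl1, Bcl2l11 and Bbc3. NOD was the higher host for 7, 4, 7 and 5 members in batches 1 to 4, and for 50.0%, 53.4%, 48.0% and 46.4% of tested genes. The members' medians were 0.12, -0.16, 0.26 and 0.14 on the log2 scale, beside 0.00066, 0.054, -0.026 and 0.00 over tested genes. A difference beyond counting error between 2 libraries compares those libraries and not the hosts.

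**Figure D3:**
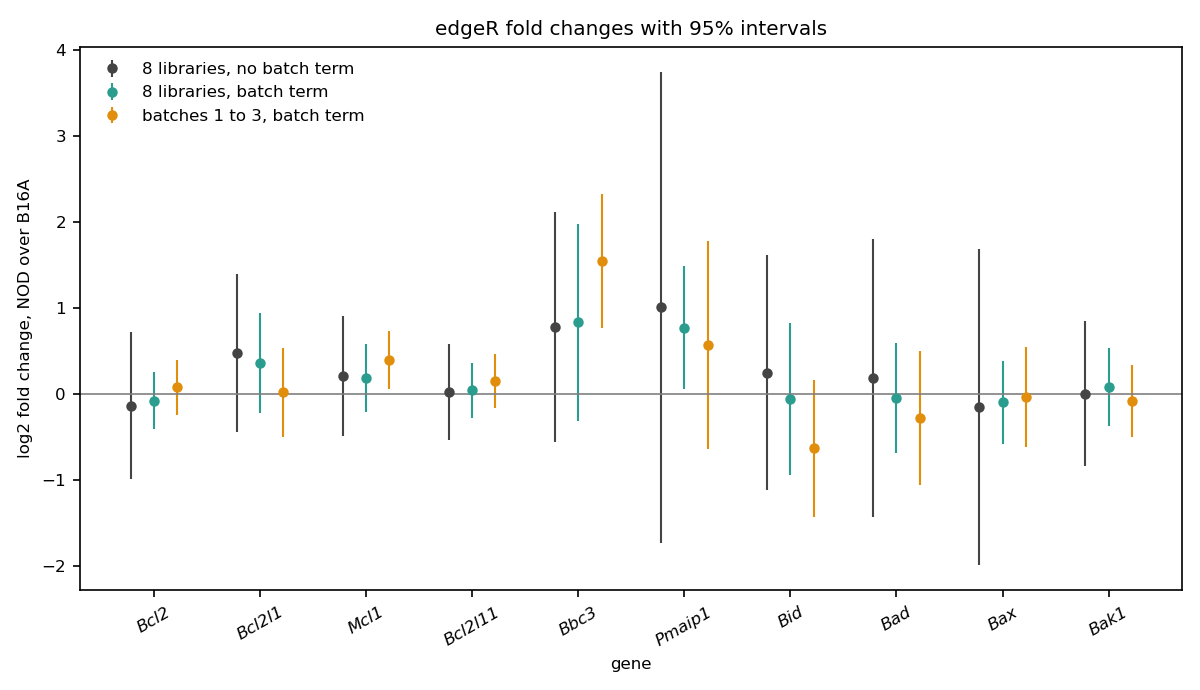
Log2 fold changes, NOD over B16A host, of the 10 members from edgeR with 95% intervals, for all 8 libraries without and with a batch term and for batches 1 to 3 with the term. Only 3 intervals exclude 0, each at an adjusted p above 0.05: Pmaip1 with all batches and the term, and Mcl1 and Bbc3 in batches 1 to 3.

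The balance between survival and death genes was read as a log2 ratio of counts within each library, which does not depend on how libraries are scaled. Bcl2 over Bcl2l11 was -0.13, -0.44, -0.47 and 0.29 in NOD and -0.41, -0.40, 0.00 and 0.53 in B16A hosts. Its mean was -0.19 ± 0.35 and -0.07 ± 0.44 (SD, n = 4 each), a difference of -0.12 that is smaller than either SD. These SDs ignore the pairing by batch. Within batches 1 to 4 the difference, NOD minus B16A, was 0.28, -0.04, -0.47 and -0.24. Mcl1 over Bcl2l11 was 1.73, 1.42, 2.35 and 1.64 in NOD and 1.42, 1.54, 1.82 and 1.81 in B16A hosts. Its means of 1.79 ± 0.40 and 1.65 ± 0.20 also differed by less than that unpaired spread. Within batches 1 to 4 its differences were 0.31, -0.12, 0.53 and -0.17. Both ratios were narrow for the family, spanning -0.47 to 0.53 and 1.42 to 2.35 over all libraries. Bcl2l1 over Bcl2l11 ran from -3.02 to -2.58 in 7 libraries and stood at -1.43 in the NOD library of batch 4.

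The ratios against the genes that were high in batch 4 moved with the batch. Bcl2 over Bax was 2.90, 2.94, 2.69 and 1.22 in NOD and 3.24, 2.45, 2.50 and 1.49 in B16A hosts, with means of 2.44 ± 0.82 and 2.42 ± 0.72. Mcl1 over Pmaip1 was 6.60, 6.86, 7.25 and 2.97 in NOD and 6.65, 7.96, 6.64 and 4.57 in B16A hosts, with means of 5.92 ± 1.98 and 6.45 ± 1.40. In both ratios the batch 4 libraries were the lowest of each host. The host differences of 0.01 and -0.54 were smaller than the SDs, but those SDs hold the shift of batch 4 and ignore the pairing. Within batches 1 to 4 the difference, NOD minus B16A, was -0.35, 0.49, 0.2 and -0.28 for Bcl2 over Bax. For Mcl1 over Pmaip1 it was -0.06, -1.1, 0.61 and -1.6. Without the NOD library of batch 4 the host differences were 0.42 and 0.45, but that comparison keeps the low B16A library of batch 4. In batches 1 to 3, Bcl2 over Bax had means of 2.84 ± 0.13 in NOD and 2.73 ± 0.44 in B16A hosts (SD). Mcl1 over Pmaip1 had 6.90 ± 0.33 and 7.08 ± 0.76. These ratios compare libraries for 1 pair of genes; they are not molar ratios, since exon lengths differ, and transcript levels do not give protein levels.

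**Figure D4:**
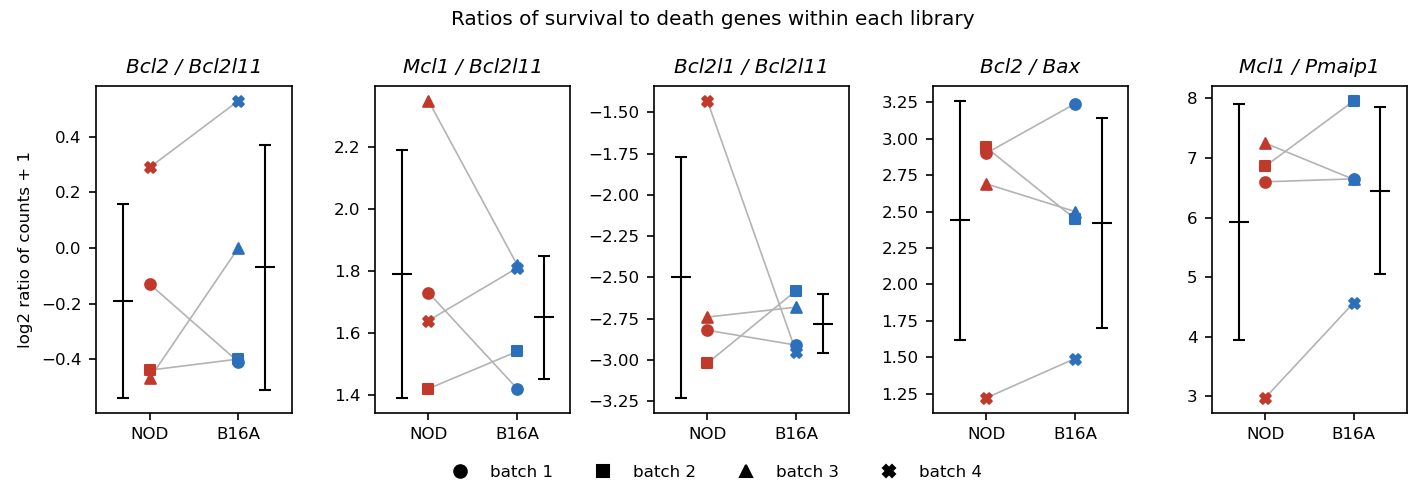
Log2 ratio of counts (1 added to each) of 5 pairs of members within each library, with a separate axis range per pair. Red and blue markers are NOD and B16A hosts, shapes are batches, grey lines join a batch, and black bars are the mean and SD of 4 libraries. Bcl2 over Bax and Mcl1 over Pmaip1 are lowest in batch 4 in each host.

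Between batch 4 and the rest, 4 members lay above and 1 below the range of the other 6 libraries in both batch 4 libraries. Above were Bcl2 (126 and 180 CPM against 70.7 to 110.0), Pmaip1 (18.4 and 41.1 against 0.936 to 3.96), Bad (19.7 and 28.0 against 3.37 to 9.32) and Bax (54.4 and 63.8 against 9.16 to 14.6). Below was Bak1 (9.81 and 14.3 against 21.4 to 28.2). This was the usual case in these data, since 72.3% of tested genes lay outside that range in both libraries, 31.8% above and 40.4% below. The mean log2 difference, batch 4 minus batches 1 to 3, was 3.40 for Pmaip1, 2.32 for Bax, 1.87 for Bad, 0.89 for Bcl2 and -0.99 for Bak1. With upper-quartile scaling these were 2.75, 1.65, 1.21, 0.22 and -1.66, of the same sign, while the median of all tested genes was -0.27 with TMM and -0.93 with upper quartiles. Mcl1, Bcl2l11 and Bbc3 had values of 0.19, 0.18 and 0.22 with TMM and of -0.49, -0.50 and -0.44 with upper quartiles, so their direction follows the scaling. The 16 activation-induced genes summed to 5683 and 7760 CPM in batch 4 and to 630 to 1618 CPM elsewhere. Cd69 made up 3734 and 4781 CPM of the batch 4 sums, and the list did not move as one. Egr3 held 0.045 and 0.084 CPM in batch 4 and 2.29 to 6.24 CPM elsewhere, and Egr1 overlapped the other batches. The B cell markers summed to 31.4 and 37.7 CPM in batch 4 against 77.0 to 151 CPM elsewhere. The myeloid markers summed to 4.84 and 5.95 against 34.9 to 61.0 CPM. The 3 NK cell markers went the other way, at 19.6 and 41.5 against 3.10 to 8.58 CPM, mostly Klrd1 in batch 4. The part of activation or of other cells in these levels was not tested. In sorted bulk cells, fewer cells with a transcript and less of it per cell cannot be told apart.

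In edgeR without the batch term, the other genes of the pathway also gave no call between hosts over 8 libraries. That fit called 0 of 14607 genes, so no list could hold a call. With the batch term edgeR again called 0 genes. At an unadjusted p under 0.05 it then found 1 of 5 further BCL2 family genes. It found 0 of 19 genes downstream of the pore and 1 of 10 death receptor genes. Among regulators of the members it found 3 of 15, and among survival cytokine genes 3 of 12. Activation-induced genes gave 3 of 15, against 5.87% of all tested genes. Of 16 further BCL2 family genes, 5 passed the filter, of which 3 had a positive and 2 a negative fold change and 0 were called (edgeR, median log2 fold change 0.00 against 0.03 over all genes). The mitophagy receptor gene Bnip3l, the one with the highest mean level, stood at 50.9, 40.4, 60.0 and 169 CPM in NOD and 39.6, 22.3, 42.1 and 160 CPM in B16A hosts. It was higher in the NOD library of every batch, with a log2 fold change of 0.28 (standard error 0.70) and of 0.44 (standard error 0.16) with the batch term (edgeR, adjusted p = 0.9999 and 0.7883). Bcl2l12 and Bcl2l13 had fold changes of 0.53 (standard error 0.50) and -0.14 (standard error 0.28). The BFL-1 copies Bcl2a1a, Bcl2a1b, Bcl2a1c and Bcl2a1d, near-identical genes between which short reads can be split, and the BH3-only genes Bmf, Hrk and Bik did not pass the filter.

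Downstream of the pore, 19 of 20 genes for cytochrome c, the apoptosome, caspases and their inhibitors were tested, and 12 had a positive and 7 a negative fold change, with 0 called (median 0.06). Apaf1, the scaffold of the apoptosome, had a log2 fold change of -0.27 (standard error 0.31), and Vdac1, a channel of the outer membrane, of 0.46 (standard error 0.58). All 10 death receptor genes were tested, 4 positive and 6 negative, with 0 called (median -0.06). Tnfsf10, the gene of the death ligand TRAIL, stood at 8.43, 8.23, 9.15 and 19.9 CPM in NOD and 13.1, 19.3, 29.3 and 25.6 CPM in B16A hosts, lower in NOD in each batch. Its log2 fold change was -0.93 (standard error 0.41, edgeR, unadjusted p = 0.0527, adjusted p = 0.9999). In batches 1 to 3 with the batch term the log2 fold change was -1.19 (standard error 0.26, edgeR, adjusted p = 0.0470), in a fit that called 0.204% of genes. The same fit with batch 1, 2 or 3 left out in place of batch 4 called 0 genes. Fadd, the adaptor of death receptors, had a log2 fold change of -0.33 (standard error 0.27).

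Among 15 tested genes that regulate the members, 8 had a positive and 7 a negative fold change, and 0 were called (median 0.03). Foxo1, a transcription factor known to drive Bcl2l11, Bbc3 and Il7r, stood at 721, 689, 714 and 548 CPM in NOD and 980, 977, 860 and 644 CPM in B16A hosts. It was the lower in NOD in every batch, as were 6.85% of tested genes, with a log2 fold change of -0.37 (standard error 0.25, adjusted p = 0.9999) and of -0.36 (standard error 0.13, adjusted p = 0.7621) with the batch term (edgeR). Tsc22d3, a glucocorticoid-induced gene, was higher in NOD in every batch, at 385, 314, 473 and 5112 CPM against 333, 218, 142 and 2104 CPM. Its log2 fold change was 1.17 (standard error 1.20, edgeR, adjusted p = 0.9999), and 0.94 (standard error 0.21, edgeR, adjusted p = 0.6832) with the batch term. DESeq2 with the batch term called it (0.95, adjusted p = 0.00397). Of 12 survival cytokine receptor and signalling genes, 6 were positive and 6 negative and 0 were called (median -0.01). Il6st, the shared receptor chain of the IL-6 family, had a log2 fold change of -0.46 (standard error 0.53). With the batch term it was -0.45 (standard error 0.13, edgeR, adjusted p = 0.6832). Il6st was lower in NOD in every batch, as were 6.85% of tested genes. Il7r had 0.03 (standard error 0.75) over 8 libraries. In batches 1 to 3 with the batch term Il7r had 0.86 (standard error 0.15, edgeR, adjusted p = 0.00371), in the fit that called 0.204% of genes. In the same fit Bcl2 stood at 0.08 (-0.24 to 0.40), Mcl1 at 0.40 and Bbc3 at 1.54. Of the activation-induced genes, 15 of 16 were tested, 8 positive and 7 negative, and edgeR without the batch term called 0 between hosts (median 0.03). Dusp2 and Nr4a3 had the smallest unadjusted p in that list. Their log2 fold changes were 0.65 (standard error 0.59) and -0.63 (standard error 0.64). With the batch term these were 0.84 (standard error 0.21) and -0.76 (standard error 0.21, edgeR, adjusted p = 0.6832 for each). Dusp2 was higher in NOD in every batch, as were 7.43% of tested genes. Nr4a3 was lower in NOD in every batch, as were 6.85%.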

How the data were processed

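Per the labels' protocols, the sorted cells' RNA went through SeqPlex amplification and 50-base single-read sequencing. The authors deposited 1 table of raw counts per gene for 8 libraries, not normalized. The submitters' processing notes list STAR, HTSeq, DESeq2 and mm10; information on versions, annotation and strand use is not given in the sources used here. All genes of the table were tested with edgeR 4.0.16 (R 4.3.3; filterByExpr, TMM, robust quasi-likelihood fit, no batch term), with Benjamini-Hochberg adjustment over 14607 genes and a threshold of 0.05. Intervals use the fit's standard error. Labels give batch numbers, so batch pairs the libraries: deviations from the host means correlated across genes at r = 0.625, 0.702, 0.611 and 0.906 between partners of batches 1 to 4, and at 0.465 to 0.741 between other libraries of batches 1 to 3, so outside batch 4 the pairing rests on the labels. Alternatives were a batch term, DESeq2 1.42.0, limma 3.58.1 voom with quality weights, other scalings and filters, and libraries left out. All pairs of libraries differed by more than sampling noise. Scripts were tested on simulated data. Lengths and positions come from GENCODE vM21. All 10 members were named; from each other list, called genes or up to 2 with the smallest unadjusted p, plus any further BCL2 family gene, and Il7r, Cd69 and T cell markers as context. Bnip3l, Egr1 and Egr3 were singled out after their values were seen. Members and lists were chosen with earlier results of these data known.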

Additional observations from a re-analysis of the deposited data

Results flagged for a closer look

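Of 30 sets of 4 values (10 members and 5 ratios in each host), 8 held a library far from the other 3 by Dixon's test. Chance flags about 1 of 20 independent sets, but these sets share libraries and counts, so that rate is no measure here. Both batch 4 libraries lay outside the range of the others in 72.3% of tested genes. In 7 of the 8 flagged sets the far library was that of batch 4. In NOD hosts these were Pmaip1 at 41.1 CPM, Bid at 21.8 CPM and Bax at 54.4 CPM, with the log2 ratios of Bcl2 over Bax at 1.22 and of Mcl1 over Pmaip1 at 2.97. In B16A hosts they were Pmaip1 at 18.4 CPM and Bax at 63.8 CPM. The remaining one was Bcl2l1 at 12.0 CPM in B16A replicate 3, below the other 3 libraries of that host.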

How the results depend on the processing

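No member was called among the 211 of 220 member fits, over 22 alternatives, that gave an adjusted p. DESeq2 gave none to 7 members with the replicate block and to 2 without it. Of 220 member values 174 kept the sign of the fit without a batch term. Bbc3 alone kept its sign in all 22, from 0.39 to 1.29 with single libraries left out. Genes called rose from 0 to 27 in DESeq2 with the replicate block (3563 genes with an adjusted p), 9 in limma voom with the block and 32 with batch 4 left out and the block; other pathway genes called rose from 0 to 2 in the first and last of these. With the replicate block in edgeR, Bid was -0.058 and Bad -0.044, and in DESeq2 -0.079 and -0.041. The block changed no other member's sign in edgeR. With batch 4 left out, without and with the block, Bcl2 was 0.10 and 0.080, Bid -0.63 and -0.63, Bad -0.19 and -0.28, and Bak1 -0.086 and -0.078. With batch 3 left out and the block, chosen after seeing the data, Mcl1 was -0.062, Bcl2l11 -0.071 and Bad -0.13; with batch 1 left out Bid was -0.057, and with batch 2 left out Bax was 0.017. Limma voom gave Bcl2 0.17, Bid -0.43, Bad -0.21, Bax 0.10 and Bak1 -0.031, and with the block Bcl2 0.043 and Bax 0.015. With no filter Bcl2l11 was -0.0115, Il7r -0.061 and Bak1 -0.0011; Bak1 was also -0.00072, -0.046 and -0.00083 with DESeq2 size factors, upper-quartile factors and the 1 CPM filter. With single libraries left out, values ran from -0.33 to 0.28 for Bcl2, -0.041 to 0.67 for Bcl2l1, -0.0015 to 0.40 for Mcl1, -0.10 to 0.14 for Bcl2l11, -1.08 to 2.58 for Pmaip1, -0.66 to 0.53 for Bid, -0.78 to 0.77 for Bad, -1.15 to 0.95 for Bax, -0.23 to 0.18 for Bak1, -0.31 to 0.90 for Vdac1, -0.90 to 2.81 for Tsc22d3 and -0.48 to 1.35 for Il7r. The fits with single libraries left out had no batch term, so leaving out 1 batch 4 library kept its partner in the other host. Without NOD replicate 4 and without B16A replicate 4, Pmaip1 was -1.08 and 2.58, Bax -1.15 and 0.95, and Bad -0.78 and 0.77. These ranges thus hold batch as well as host. The cause of the sign changes was not tested. Counts of Pmaip1, Bid and Bad in batches 1 to 3 (6 to 66 per library) limit what these genes can show. The host difference of the balance ratios ran, with single libraries left out, from -0.28 to 0.08 for Bcl2 over Bcl2l11, -0.05 to 0.26 for Mcl1 over Bcl2l11, -0.08 to 0.45 for Bcl2l1 over Bcl2l11, -0.29 to 0.42 for Bcl2 over Bax and -1.16 to 0.45 for Mcl1 over Pmaip1. Each of these differences kept the batch partner of the library left out.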
